A study of Homo sapiens with 6 samples.

Results

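The 38 genes described here encode the acid hydrolases of the lysosome, the proteins of its membrane, its proton pump and the transcription factors TFEB and TFE3 that switch on many of these genes. They were taken by symbol from 58735 rows of a gene table, and each symbol matched exactly 1 row. The libraries came from MDA-MB-231, an established human triple-negative breast cancer line labelled wild type, which had been stained with the membrane dye PKH26 and grown for 12 days in DMEM with serum. Dye is diluted at each division, and the brightest 1% of cells were sorted as slow-cycling cells (SCC, 3 libraries). The comparison group, rapid-cycling cells (RCC, 3 libraries), is called moderate in dye by the sorting protocol and low in dye by the sample labels. Because the groups were sorted by dye, they differ in dye content by design. Reasons for bright dye other than few divisions were not tested. All 6 libraries share the line, the stain and the chase, and whether the replicates came from separate cultures is not stated, so p-values measure the spread between these libraries.

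Lysosomes break down proteins, lipids, glycans and nucleic acids that reach them by endocytosis and autophagy. Their enzymes are made in the endoplasmic reticulum, most are carried to the lysosome by mannose 6-phosphate receptors, and they work at the acid pH that the V-ATPase proton pump maintains. When the kinase complex mTORC1 on the lysosomal surface is inactive, TFEB and TFE3 enter the nucleus and bind E-boxes in the promoters of lysosomal genes. Because that switch acts largely on the location of the 2 proteins, their RNA levels do not report it.

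Of the 37 members that could be tested, 5 rose in SCC and 0 fell at a Benjamini-Hochberg adjusted p under 0.05 in edgeR's quasi-likelihood test. The 5 were the aspartic protease gene CTSD, the peptidase gene TPP1, the sphingolipid activator gene PSAP, the sphingomyelinase gene SMPD1 and the progranulin gene GRN. They make up 13.5% of the tested members, whereas 2.07% of all 15881 tested genes were called, 1.69% higher and 0.378% lower. The members were chosen with earlier results of these data known, so these shares are given as a description. Fold changes of the 5 called genes ran from 1.28 (PSAP) to 1.59 (CTSD), so none reached a doubling. The member not tested was CLN3, whose counts were too low. At an unadjusted p under 0.05, 15 members were higher and 1, CTSC, lower, beside 11.4% and 8.27% of all tested genes. DESeq2 called 7 members higher and 0 lower, beside 3.02% of all tested genes called higher. Limma on the FPKM values called at most 2 members higher and 0 lower, beside 0.128% to 1.04% of all tested genes called higher. Every call was lost when any 1 of RCC replicates 1, 2 or 3 was left out, which gave 0 called members each time while 99, 99 and 103 of all tested genes were called higher. Without SCC replicate 3 there were 3 called members, without SCC replicate 2 there were 7 and without SCC replicate 1 there were 11. In these 3 fits, in that order, 1.09%, 3.57% and 3.93% of all tested genes were called higher.

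Direction was more widely shared than the calls. Log2 fold changes of SCC over RCC were above 0 for 29 of the 37 tested members (78.4%), beside 50.5% of all tested genes. The sign went with GC content. At a GC content of at least 52.8%, 18 of 19 members and 4500 of 5816 of all tested genes were above 0. Below it, 11 of 18 members and 3518 of 10058 of all tested genes were. The median of the members was 0.15, ranging from -0.23 to 0.67, beside 0.00 for all tested genes. The 3 SCC libraries lay above the 3 RCC libraries in 17 members and below them in 2 tested members, CTSC and GLA, where 14.4% and 13.4% of all tested genes did so. Summed over the 38 genes, the share of all counts was 0.422%, 0.411% and 0.420% in SCC replicates 1 to 3 and 0.365%, 0.367% and 0.358% in RCC replicates 1 to 3, so the groups did not overlap. PSAP alone gave between 23.1% and 25.7% of these counts. Without PSAP the share was 0.311% ± 0.0049 in SCC and 0.278% ± 0.0031 in RCC (SD, n = 3). These RNA shares come from sorted populations, in which more cells with high RNA and more RNA per cell cannot be told apart.

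**Figure D1:**
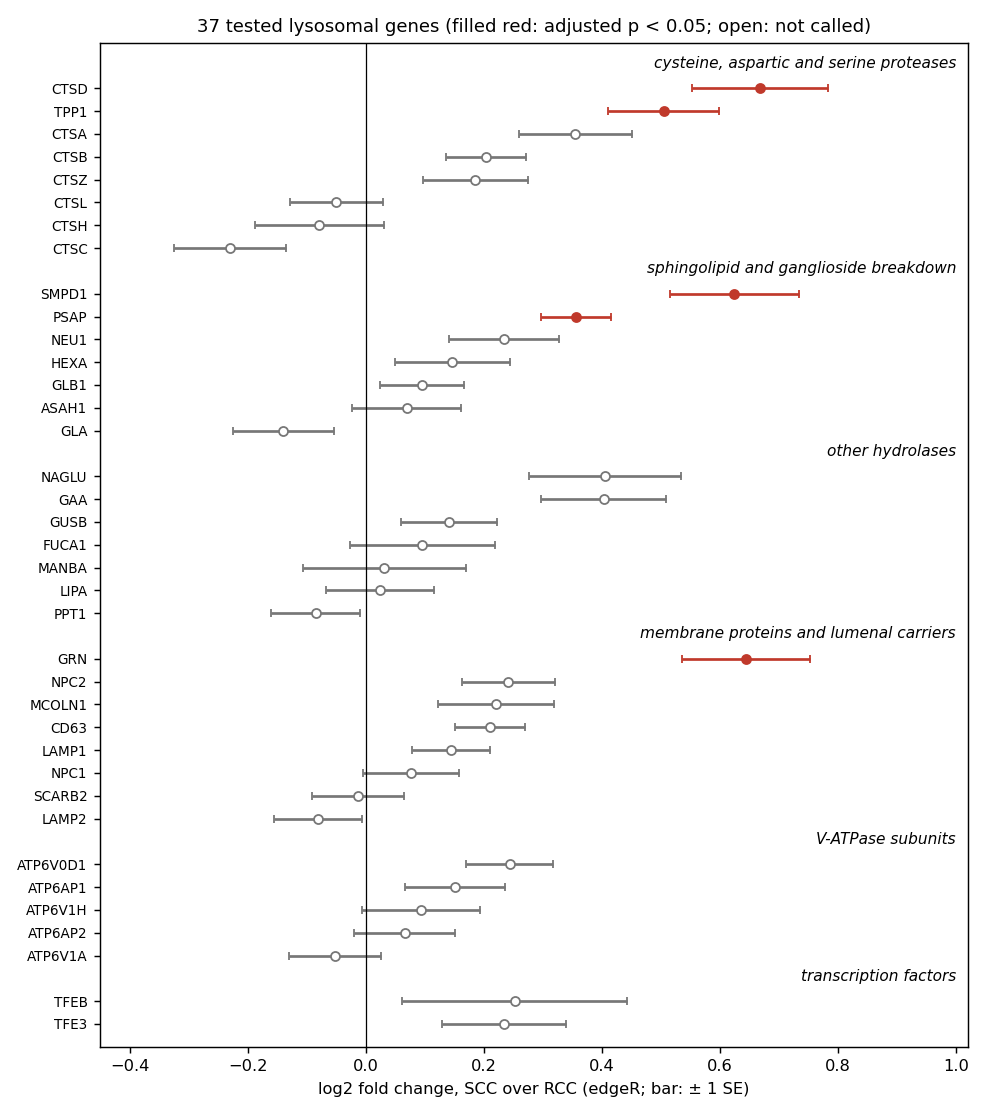
Fitted log2 fold change of SCC over RCC (horizontal axis, with 1 standard error on each side) for the 37 tested lysosomal genes, grouped by role. Filled red points mark the 5 genes with an adjusted p under 0.05, all to the right of 0, and the 8 genes left of 0 are all open points.

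Total counts ran from 17655855 (RCC replicate 3) to 27831824 (SCC replicate 1), and mitochondrial genes took 4.45% to 4.75% of counts in SCC and 3.77% to 3.96% in RCC. SCC replicate 1 stood apart. Chi-square divided by its degrees of freedom was 28.4 and 21.4 between this library and the other SCC libraries, and 3.28 to 4.24 in the other pairs of the same group. The deviation of SCC replicate 1 followed GC content, with a median log2 deviation from the mean of the 6 libraries of -0.24 in the tenth of tested genes lowest in GC and 0.42 in the tenth highest. Markers of the line, VIM and CD44, were abundant at means of 795 and 357 CPM in SCC and 776 and 350 in RCC, where CPM is the count scaled to library size with TMM factors. The keratin genes KRT18 and KRT8, also markers of the line, had means of 213 and 401 CPM in SCC and 193 and 335 in RCC. In both, every SCC library exceeded every RCC library. Their log2 fold changes were 0.15 and 0.26, neither called by edgeR (adjusted p 0.255 and 0.0694). The receptor genes ESR1 and PGR had means of 0.35 and 0 CPM in SCC and 0.46 and 0.04 in RCC, and ERBB2 RNA was present at 85.8 and 74.9 CPM. Macrophages are rich in lysosomal RNA, and 13 leukocyte markers together gave 2.20 to 5.30 CPM in SCC and 1.58 to 2.17 in RCC, with C1QA and C1QB at 0 counts in every library and 3 to 8 of the markers at 0 in each. The highest sum belonged to SCC replicate 1, which had 53 counts of PTPRC against 3 to 15 in the other 5 libraries. The part of the mitochondrial share in the lysosomal values was not tested.

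E-boxes in promoters are the known binding sites of TFEB and TFE3. RefSeq promoter windows on GRCh38.p14, from 250 bases before to 50 after a transcription start, were matched by symbol for 29 members in 42 windows. Those not matched were CTSB, PSAP, HEXA, ASAH1, MANBA, NAGLU, LAMP2, ATP6V1A and ATP6V1H. A pair of strings that each read the same on both strands were searched, the E-box CACGTG and its extended form TCACGTGA, which contains it. The extended form was found for 6 of the 29 members (20.7%), namely CTSA, GAA, LAMP1, CLN3, MCOLN1 and ATP6V0D1, and in 0.98% of all 35116 windows or 1.18% of the 27305 gene symbols in the table. CACGTG was found for 9 members (31.0%), adding CTSD, NEU1 and CD63, and in 7.26% of all windows or 8.77% of gene symbols. The stretches below end at the last base before the RefSeq start and run 5′ to 3′ on the gene's own strand, with each CACGTG in capitals. They are printed because these members differ in how many E-boxes they hold, and CTSD is the called gene among them.
CTSD: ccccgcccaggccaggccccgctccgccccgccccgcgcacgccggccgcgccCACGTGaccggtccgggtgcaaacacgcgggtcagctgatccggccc
CTSA: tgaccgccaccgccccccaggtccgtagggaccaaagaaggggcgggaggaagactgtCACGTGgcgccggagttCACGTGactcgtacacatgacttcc
GAA: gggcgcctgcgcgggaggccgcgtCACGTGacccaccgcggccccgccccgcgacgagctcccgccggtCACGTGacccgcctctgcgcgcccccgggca
MCOLN1: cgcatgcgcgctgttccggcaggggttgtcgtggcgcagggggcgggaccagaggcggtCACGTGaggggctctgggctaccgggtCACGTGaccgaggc
ATP6V0D1: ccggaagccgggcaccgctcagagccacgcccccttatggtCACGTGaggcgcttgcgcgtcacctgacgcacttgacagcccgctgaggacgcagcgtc
LAMP1: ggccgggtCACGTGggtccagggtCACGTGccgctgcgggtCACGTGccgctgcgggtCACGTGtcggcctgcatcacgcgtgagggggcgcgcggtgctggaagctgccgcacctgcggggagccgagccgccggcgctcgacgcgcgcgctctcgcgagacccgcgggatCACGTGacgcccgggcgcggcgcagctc

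In genome coordinates, the CTSD stretch is chr11:1763928-1764027 on the minus strand, CTSA chr20:45891235-45891334 on the plus strand, GAA chr17:80101481-80101580 on the plus strand, MCOLN1 chr19:7522524-7522623 on the plus strand, ATP6V0D1 chr16:67481158-67481257 on the minus strand and LAMP1 chr13:113297039-113297238 on the plus strand. LAMP1 held 6 E-boxes, the most among the printed genes, of which the last begins at the final base shown and crosses the start. LAMP1, GAA and MCOLN1 each held 2 copies of the extended form, CTSA held 1 beside a plain E-box, and ATP6V0D1 held 1. CTSD held a single E-box, beginning 47 bases before the start and preceded by c, so that it is not the extended form. The windows of the called genes GRN, TPP1 and SMPD1 held no CACGTG.

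Of the 5 tested members with the extended form, 0 were called by edgeR and 2, CTSA and GAA, by DESeq2. All 5 had log2 fold changes above 0, with a median of 0.24 against 0.14 for the 23 tested members whose windows lacked it. The 5 were also richer in GC, at a median of 57.6% against 51.6%. With the GC offset both medians were lower, 0.13 and 0.08, and without SCC replicate 1 they were 0.20 and 0.07, with all 5 above 0 in both fits. Over all tested genes matched by symbol, the 232 with the extended form had a median of 0.01 and the 10399 without it 0.01, and 1.72% of the former were called higher. The AP-1 site TGACTCA, whose other strand reads TGAGTCA, is relevant to the factor named in the series title. It was in the windows of 2 of the 29 members (6.9%), CD63 and TFE3, and in 4.95% of all windows or 6.05% of gene symbols. These are matches of letters in a window, read as a description.

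The lysosomal proteases comprise 7 cathepsins and TPP1. Of these 8 genes 2 rose, and their median log2 fold change was 0.19. CTSD (ENSG00000117984, chromosome 11, 1752752 to 1764573) encodes cathepsin D, the main aspartic protease of the lysosome. It was at 194, 134 and 152 CPM in SCC replicates 1 to 3 and at 99.1, 104 and 99.2 in RCC replicates 1 to 3. Every SCC library exceeded every RCC library, and SCC replicate 1 was far above the other SCC libraries. This gave a log2 fold change of 0.67 (standard error 0.12, adjusted p 0.0135). It was 0.51 without SCC replicate 1 (adjusted p 3.99e-07) and 0.42 with an offset for GC content (0.000129), a call in both, whereas the fits without 1 RCC library gave adjusted p from 0.0684 to 0.102. Its adjusted p over all 17 alternative fits ran from 9.7e-13 to 0.272. Of its exon bases, 52.7% are shared with AC068580.4 on the same strand or the antisense AC068580.3, so its reads could be split. These genes held at most 17 and 23 counts in any library. How reads over shared bases were counted is not given, so these counts do not tell how many reads CTSD lost.

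TPP1 (ENSG00000166340, chromosome 11, 6612763 to 6619485) encodes the tripeptidyl peptidase that is lost in a childhood form of neuronal ceroid lipofuscinosis. Its CPM values were 44.4, 47.1 and 46.5 in SCC and 33.8, 35.1 and 28.2 in RCC. The SCC libraries were close to each other, and SCC replicate 1 was the lowest of them. On the log2 scale the difference was 0.50 (standard error 0.095, adjusted p 0.0218), and the GC offset gave 0.49 and the fit without SCC replicate 1 gave 0.53, both called. Its adjusted p was 0.0852 without SCC replicate 3 and from 0.0653 to 0.127 without 1 RCC library, within a range of 5.34e-05 to 0.256 over all alternatives. Of the TPP1 exon bases, 14.4% are shared with AC091564.7 on the same strand or the antisense AC091564.6. Both of these genes had 0 counts in every library. As for CTSD, these counts do not tell how many reads TPP1 lost.

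The remaining cathepsins were not called. CTSA (ENSG00000064601, chromosome 20, 45890144 to 45898820), the carboxypeptidase that also protects NEU1 and GLB1, was at 127, 98.7 and 108 CPM in SCC and 87.4, 91.9 and 81.6 in RCC. The groups did not overlap, yet the log2 fold change of 0.35 had an adjusted p of 0.0873. Of the CTSA exon bases, 28.5% are shared with NEURL2, PLTP and the antisense AL008726.1 on the opposite strand, so its level is uncertain. CTSA was called in 6 of 17 alternative fits (adjusted p 0.00257 to 0.444), among them DESeq2 (0.0315), with the GC offset (0.22, adjusted p 0.0371), without SCC replicate 1 (0.25, 0.00964) and without SCC replicate 2 (0.42, 0.026). CTSB (ENSG00000164733, chromosome 8, 11842524 to 11869448), a cysteine protease often studied in tumour invasion, was at 210, 197 and 221 CPM in SCC and 182, 188 and 176 in RCC, again without overlap. Its log2 fold change was 0.20 (standard error 0.067, adjusted p 0.146), and it was called in 1 fit, that without SCC replicate 1 (0.0145, in a range up to 0.44). CTSZ (ENSG00000101160, chromosome 20, 58995185 to 59007247), a carboxypeptidase and the third most abundant member per length, was at 190, 151 and 161 CPM in SCC and 142, 142 and 156 in RCC. These ranges overlapped, and the log2 fold change of 0.19 (adjusted p 0.272) was 0.01 with the GC offset and 0.09 without SCC replicate 1.

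CTSC (ENSG00000109861, chromosome 11, 88293592 to 88337787) encodes the dipeptidyl peptidase that activates serine proteases of immune granules, and it was the protease with the lowest fold change. It was at 95.8, 120 and 123 CPM in SCC and 127, 139 and 130 in RCC. All SCC values lay below all RCC values, SCC replicate 1 being lowest. CTSC had a log2 fold change of -0.23 (standard error 0.095, adjusted p 0.219), and it was -0.12 without SCC replicate 1. CTSH and CTSL, both cysteine proteases, had log2 fold changes of -0.08 and -0.05, with means of 14.5 and 64.5 CPM in SCC and 15.3 and 66.7 in RCC. The sign of both changed to above 0 without SCC replicate 1.

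A second group of 7 genes acts on sphingolipids and gangliosides, and 2 of them rose, with a median log2 fold change of 0.15. PSAP (ENSG00000197746, chromosome 10, 71816298 to 71851375) encodes prosaposin, which is cleaved into the saposins that present lipids to the hydrolases. At a mean of 295 FPKM (fragments scaled to library size and gene length) over the 6 libraries, it was the most abundant member and above 99.4% of tested genes. Its values were 1103, 1049.6 and 1084 CPM in SCC and 855, 858 and 816 in RCC. The groups were far apart for their spread, and SCC replicate 1 was not separate from the other SCC libraries. A log2 fold change of 0.36 resulted (standard error 0.059, adjusted p 0.0115). PSAP and SMPD1 were the only members also called by limma on log2(FPKM + 1), with adjusted p of 0.0356 and 0.0406. Leaving out SCC replicate 3 raised the adjusted p of PSAP to 0.0677, and leaving out 1 RCC library raised it to between 0.0742 and 0.0981, in a range of 5.65e-06 to 0.259 over all alternatives.

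SMPD1 (ENSG00000166311, chromosome 11, 6390431 to 6394998) encodes acid sphingomyelinase, which turns sphingomyelin into ceramide. It was at 32.2, 26.1 and 25.3 CPM in SCC and 18.0, 18.3 and 18.0 in RCC. The RCC libraries were nearly equal, and each SCC library was above them. SMPD1 had a log2 fold change of 0.62 (standard error 0.11, adjusted p 0.0142), 0.45 with the GC offset and 0.51 without SCC replicate 1, called in both. Without 1 RCC library the adjusted p was 0.0804 to 0.104, and over all alternatives it was 8.56e-06 to 0.163.

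Among the other 5 genes of this group, NEU1 (ENSG00000204386, chromosome 6, 31857659 to 31862906), the sialidase that works in a complex with CTSA, was at 33.0, 30.9 and 33.4 CPM in SCC and 27.6, 30.1 and 24.9 in RCC. The ranges did not overlap, and NEU1 was not called (log2 fold change 0.23, adjusted p 0.208). HEXA, a subunit of the hexosaminidase lost in Tay-Sachs disease, had a log2 fold change of 0.15, the galactosidase gene GLB1 0.09 and the ceramidase gene ASAH1 0.07, none called. GLA, the galactosidase lost in Fabry disease, was at a mean of 31.2 CPM in SCC and 34.3 in RCC without overlap, a log2 fold change of -0.14 (adjusted p 0.376).

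**Figure D2:**
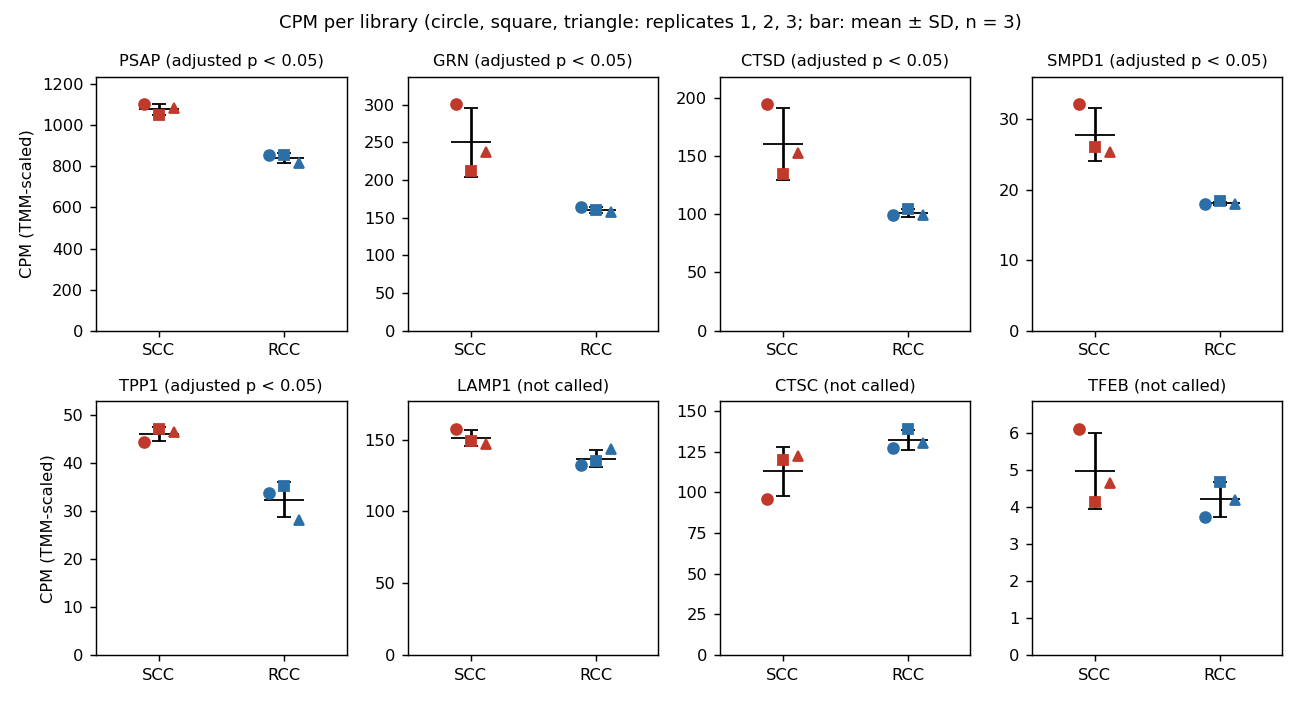
CPM after TMM scaling (vertical axis, from 0) in each SCC and RCC library for the 5 called genes and for LAMP1, CTSC and TFEB, with the mean and SD of 3 libraries as bars. In PSAP and TPP1 the 3 SCC points lie close together above the RCC points, whereas in GRN, CTSD and SMPD1 the circle of SCC replicate 1 lies above the other SCC points.

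The 7 other hydrolases had 0 calls in edgeR, although 2 had an unadjusted p under 0.05 and were higher, and DESeq2 called 1 of them, GAA. Their median log2 fold change was 0.10. GAA (ENSG00000171298, chromosome 17, 80101556 to 80119879), the glycogen-degrading glucosidase lost in Pompe disease, was at 157, 113 and 124 CPM in SCC and 103, 98.4 and 97.0 in RCC. SCC replicate 1 was the highest by far, although the other SCC libraries also exceeded all RCC libraries. Its log2 fold change of 0.40 (adjusted p 0.0832) was 0.13 with the GC offset (0.185) and 0.26 without SCC replicate 1 (0.00323). GAA was called in 5 of 17 alternative fits, with adjusted p from 0.000215 to 0.455. NAGLU (ENSG00000108784, chromosome 17, 42536172 to 42544449), a glucosaminidase of heparan sulfate breakdown, was at 32.6, 24.3 and 23.9 CPM in SCC and 21.8, 20.4 and 19.0 in RCC. Its log2 fold change was also 0.40 (adjusted p 0.134), and 0.14 with the GC offset. The fit without a filter on low counts called it (0.0146, in a range up to 0.516). GAA and NAGLU are the members with the highest GC content, 64.6% and 63.8%.

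The rest of that group lay near 0. Log2 fold changes were 0.14 for the glucuronidase gene GUSB, 0.10 for the fucosidase gene FUCA1, 0.03 for the mannosidase gene MANBA, 0.02 for the acid lipase gene LIPA and -0.09 for the thioesterase gene PPT1. All 5 had overlapping groups. Adjusted p ranged from 0.349 (GUSB) to 0.917 (MANBA). PPT1 shares 23.4% of its exon bases with CAP1 on the opposite strand, a gene of at least 3462 counts per library, so its level is uncertain.

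Membrane proteins and lumenal carriers comprise 9 genes, of which 8 were tested and GRN rose, and the median log2 fold change was 0.18. GRN (ENSG00000030582, chromosome 17, 44345086 to 44353102) encodes progranulin, a secreted and lysosomal protein whose loss causes frontotemporal dementia. It was at 301, 212 and 238 CPM in SCC and 164, 160 and 157 in RCC. The RCC libraries were tightly grouped, and the lowest SCC library was well above them. GRN thus had a log2 fold change of 0.64 (standard error 0.11, adjusted p 0.0125). The GC offset lowered it to 0.41 (6.97e-05) and leaving out SCC replicate 1 to 0.49 (1.24e-07), both called, and without 1 RCC library the adjusted p was 0.0760 to 0.0924, in a range of 8.17e-13 to 0.268 over all alternatives.

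CD63 (ENSG00000135404, chromosome 12, 55725323 to 55729707), a tetraspanin of late endosomes and exosomes, was the second most abundant member at 128 FPKM. It was at 354, 365 and 369 CPM in SCC and 312, 317 and 311 in RCC. Both groups were tight and did not overlap. The log2 fold change of 0.21 was nonetheless not called (standard error 0.059, adjusted p 0.0976), and of 17 alternative fits 1 called it, that without SCC replicate 1 (0.23, 0.00124, in a range up to 0.352). NPC2 (ENSG00000119655, chromosome 14, 74476192 to 74494177), which hands cholesterol to NPC1, was at 82.1, 93.0 and 92.5 CPM in SCC and 76.6, 78.7 and 70.9 in RCC. Here SCC replicate 1 was the lowest SCC library. Its log2 fold change of 0.24 (adjusted p 0.14) was equally 0.24 with the GC offset, where it was called (0.0375), and 0.30 without SCC replicate 1 (0.00133). These were among 3 alternative fits that called NPC2, and adjusted p reached 0.47 in the others. NPC1 itself, the cholesterol exporter of the membrane, had 0.08 (adjusted p 0.614).

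LAMP1 (ENSG00000185896, chromosome 13, 113297241 to 113323672) encodes the most used marker protein of the lysosomal membrane. It was at 158, 149 and 147 CPM in SCC and 132, 135 and 143 in RCC. The groups were separate by a narrow margin, and the log2 fold change of 0.14 (standard error 0.067) was not called (adjusted p 0.261). LAMP2, its relative needed for fusion with autophagosomes, was at means of 132 and 139 CPM with overlap, a log2 fold change of -0.08 that was 0.05 with the GC offset. MCOLN1 (ENSG00000090674, chromosome 19, 7522626 to 7534009), the calcium channel that acts upstream of TFEB, was at 31.9, 27.3 and 28.5 CPM in SCC and 23.3, 24.9 and 27.2 in RCC. These nearly touch, and its log2 fold change of 0.22 (adjusted p 0.248) was 0.03 with the GC offset. SCARB2, the receptor that carries glucocerebrosidase, had -0.01. CLN3, a membrane protein lost in juvenile ceroid lipofuscinosis, gave only 9, 6 and 6 counts in SCC and 24, 9 and 12 in RCC. It shares 30.9% of its exon bases with AC138894.1 on the same strand and APOBR on the other, and its value is uncertain.

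The V-ATPase group has 5 members, subunits of the pump or its helpers, and 0 of them were called by edgeR or DESeq2. At an unadjusted p under 0.05 in edgeR, 1 was higher, and the median log2 fold change was 0.09. ATP6V0D1 (ENSG00000159720, chromosome 16, 67438014 to 67481237), which couples the rotor of the pump to its membrane ring, was at 83.7, 74.4 and 77.6 CPM in SCC and 67.9, 67.4 and 63.9 in RCC. The groups did not overlap, and the log2 fold change was 0.24 (adjusted p 0.122), 0.13 with the GC offset and 0.20 without SCC replicate 1, the 1 fit of 17 that called it (0.0457, in a range up to 0.38). The accessory subunit genes ATP6AP1 and ATP6AP2 had 0.15 and 0.07, and ATP6V1H, a regulator of the cytosolic sector, had 0.09. The catalytic subunit gene ATP6V1A had -0.05, at means of 54.9 and 56.9 CPM. Groups overlapped in these 4 genes.

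Neither transcription factor gene was called. TFEB (ENSG00000112561, chromosome 6, 41683978 to 41736259) was scarce, at 6.12, 4.14 and 4.65 CPM in SCC and 3.74, 4.68 and 4.20 in RCC. The groups overlapped, and the log2 fold change of 0.25 (standard error 0.19, adjusted p 0.469) was 0.02 with the GC offset. TFE3 (ENSG00000068323, chromosome X, 49028726 to 49043486) was at 61.1, 48.0 and 46.1 CPM in SCC and 43.3, 45.015 and 43.8 in RCC. The groups were narrowly separate and SCC replicate 1 alone was far from the RCC libraries, and the log2 fold change of 0.23 (adjusted p 0.251) was 0.10 without it. Per length, TFE3 was at 11.1 FPKM and TFEB at 0.81, above 72.6% and 21.1% of tested genes.

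Levels per length spanned a wide range among the members. After PSAP, CD63 and CTSZ (76.6 FPKM) came GRN (55.4) and CTSD (41.5), each a mean of the 6 libraries. The next 7, from NPC2 at 29.8 to LAMP2 at 24.4, lay close together. At the low end HEXA was at 2.29, MANBA at 0.89, TFEB at 0.81 and CLN3 at 0.05. FPKM here divides by the union of all annotated exons, which is 12611 bases for HEXA and 19341 for SCARB2, so genes with many long isoforms read low on this scale.

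Fold changes among the members ran with GC content. Across the 37 tested members the Pearson r was 0.74 and Spearman's rho 0.80, given as a description, since genes share their libraries and are not independent replicates. The 19 members with a GC content of at least 52.8% had a median log2 fold change of 0.23, and the 18 below it 0.05. All tested genes split at the same point had 0.16 and -0.07. SCC replicate 1 was the highest of the 6 libraries in 18 members, whose median GC content was 58.4%, and the lowest in 11, whose median was 43.2%.

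**Figure D3:**
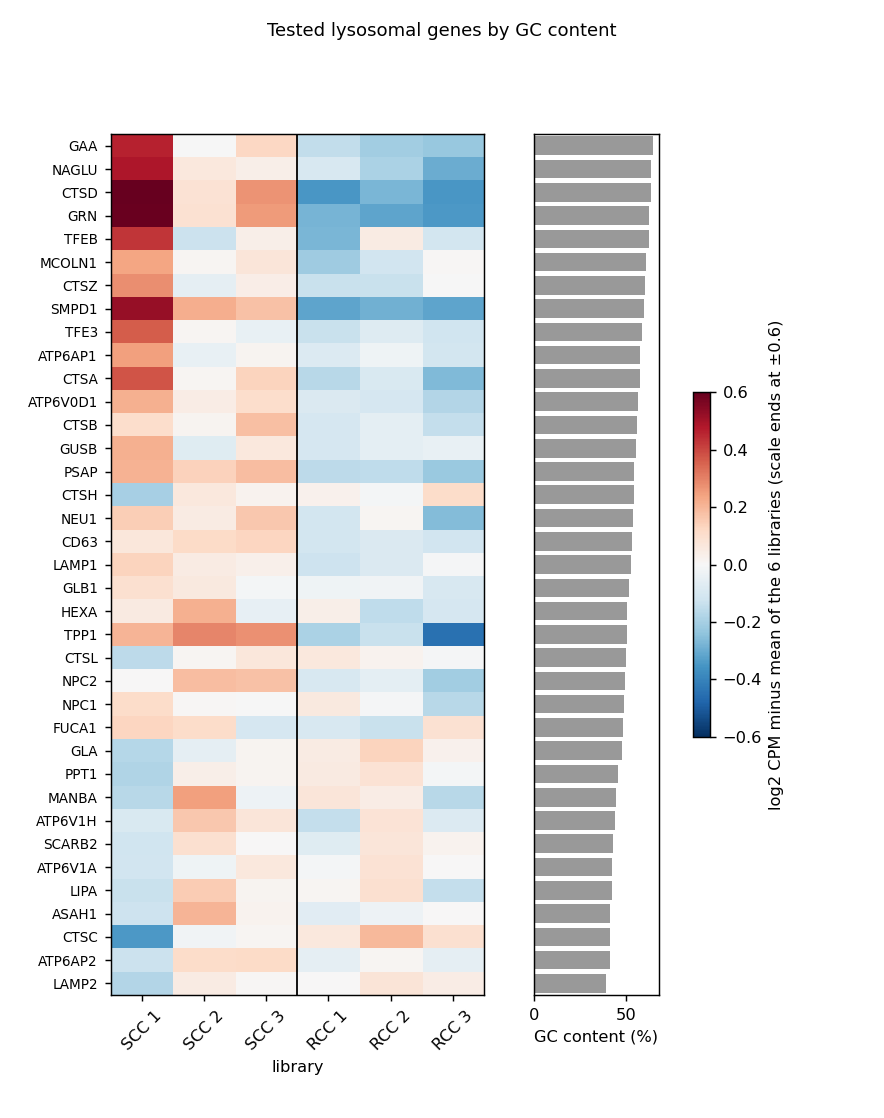
Log2 CPM of each tested lysosomal gene minus its mean over the 6 libraries (colour, red above and blue below 0), one column per library, with genes ordered by GC content (bars at right, in %). The SCC 1 column turns from red at high GC to blue at low GC, while the columns of SCC 2 and SCC 3 are mostly pale red and those of RCC mostly blue.

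With an offset that removes each library's trend with GC content, the relation across all tested genes was gone (r = 0.02) and that across members was weaker (0.29). The members' median was then 0.10, with 32 of 37 above 0, and the median of all tested genes was -0.0033. Members above and below the split had medians of 0.13 and 0.09, where all tested genes had -0.0039 and -0.003. The 5 called genes all stayed called, joined by CTSA and NPC2, beside 3.45% of all tested genes called higher in that fit, against 1.69% without the offset. Without SCC replicate 1, a median of 0.12 was found over 38 members, with 32 above 0 and 11 called. Those 11 were the 5 called genes with CTSA, CTSB, GAA, CD63, NPC2 and ATP6V0D1, beside 3.93% of all tested genes called higher in that fit. The median coefficient of variation of the tested members was 8.74% in SCC and 4% in RCC, beside 11.7% and 6.95% for all tested genes. Over SCC replicates 2 and 3 it was 3.41%, beside 5.52%. Those values rest on 2 libraries, so they cannot be ranked against the RCC values from 3.

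**Figure D4:**
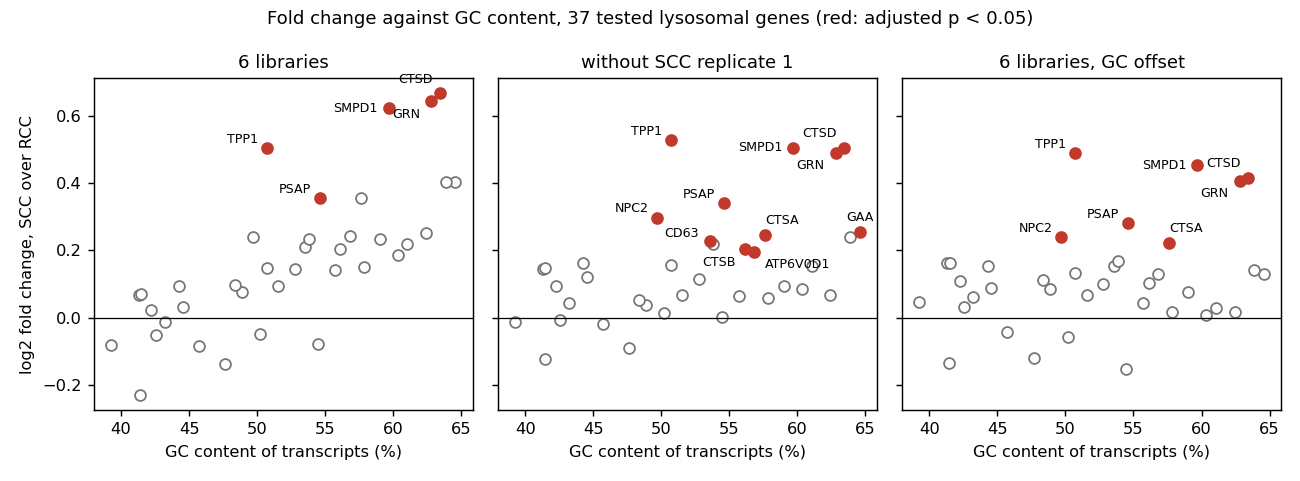
Log2 fold change of SCC over RCC (vertical axis) against GC content of the gene's transcripts in % (horizontal axis) for the 37 tested lysosomal genes in 3 fits, with called genes in red and named. The relation seen with 6 libraries (r = 0.74) is weaker with the GC offset (0.29) and without SCC replicate 1 (0.50), and the 5 called genes stay called in all 3 panels.

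Beyond the members, 130 other genes of the pathway were listed by role from general knowledge, and 122 could be tested. Of these 1 rose and 0 fell, a share of 0.82% beside the 1.69% of all tested genes called higher. At an unadjusted p under 0.05, 21 were higher and 1, the transporter gene MFSD8, lower, beside 11.4% and 8.27% of all tested genes. DESeq2 called 3 higher (GPNMB, IDUA and PLA2G15) and 0 lower, and edgeR with the GC offset called 2 higher (GPNMB and LAPTM4A) and 1 lower, the Ragulator gene LAMTOR4 (-0.30, adjusted p 0.0406). IDUA was at 15.7, 7.41 and 8.87 CPM in SCC and 5.65, 6.50 and 7.10 in RCC, so SCC replicate 1 stood far above the rest. It has a GC content of 68.2%, and edgeR did not call it with the GC offset or without SCC replicate 1. The share called higher changed with the fit. With DESeq2 it was 2.46%, beside 3.02% of all tested genes, and with the GC offset 1.64%, beside 3.45%. Without the filter on low counts it was 9 of 130 genes (6.92%, beside 2.65% of all genes), and without SCC replicate 1 it was 5 of 123 (4.07%, beside 3.93%). It was 3 of 123 without SCC replicate 2 (2.44%, beside 3.57%) and 0 without SCC replicate 3 (beside 1.09%). Without RCC replicate 1, 2 or 3 it was 0 each time, beside 0.608%, 0.602% and 0.63% of all genes. The called gene was GPNMB, a glycoprotein of lysosomes and melanosomes, at 8.49, 8.84 and 10.1 CPM in SCC and 4.91, 6.36 and 5.31 in RCC. The groups did not overlap, and the log2 fold change was 0.73 (standard error 0.15, adjusted p 0.033), or 0.78 with the GC offset and without SCC replicate 1. The call was lost when SCC replicate 3 was left out (adjusted p 0.115), in the fits that dropped RCC replicates 1, 2 or 3 (0.191, 0.0643 and 0.152) and with limma (0.142 to 0.39).

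The 37 other hydrolases and activators had a median log2 fold change of 0.18, with 30 above 0 (81.1%, beside 50.5% of all tested genes). In edgeR 0 were called and 12 were higher at an unadjusted p under 0.05, beside 11.4% of all tested genes, and DESeq2 called 2. PLA2G15, the lysosomal phospholipase, had the smallest p of them, with a log2 fold change of 0.44 (adjusted p 0.0751). Medians were lower for the other membrane proteins (0.05 over 28 genes) and other V-ATPase subunits (0.11 over 15). The list of MITF, ZKSCAN3 and the mTORC1 switch, with its Rag GTPases, Ragulator and folliculin genes, had 0.03 over 20 genes. Enzyme delivery had 0.06 over 22. The smallest p in the first 3 of these lists belonged to GPNMB, ATP6V0C (0.57, adjusted p 0.267, and 0.13 without SCC replicate 1) and the Rag GTPase gene RRAGA (0.20, 0.184). MITF, the relative of TFEB and TFE3, had means of 51.7 CPM (SCC) and 49.8 CPM (RCC) (log2 fold change 0.05, adjusted p 0.723).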

How the data were processed

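The authors deposited whole-number counts per gene and FPKM per gene with a gene length. HISAT2 2.0.5 and featureCounts 1.5.0-p3 are named in the submitters' processing notes, settings not given, and the genome build and use of strand are not given in the sources used here. All 58735 gene IDs, starts and ends equalled those of GENCODE 29 (GRCh38). Genes were filtered (filterByExpr, minimum count 10), TMM-scaled and tested on group alone with edgeR 4.0.16 (R 4.3.3) over the 6 libraries, two-sided, with Benjamini-Hochberg adjustment over 15881 genes. Standard errors are the log2 fold change over the square root of F. GC content was pooled over GENCODE transcripts, and the offset was a lowess curve per library (span 0.3). Alternatives used DESeq2 1.42.0, limma 3.58.1 on log2(FPKM + 1) or log2(FPKM + 0.1) (filter: FPKM of at least 1 in 3 libraries), other filters and scalings, a replicate block and leaving out each library. The edgeR script was tested on simulated data.

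The members and lists were chosen with earlier results of these data known. Values in every library are given for called members, the 12 next by p, the 3 most abundant, and TFEB, TFE3, LAMP1, CTSB and CTSD. Of other pathway genes, those called or with the smallest p of a list are named, except 1 that is not reported here, and MITF, MFSD8, IDUA, LAPTM4A and LAMTOR4 were named after their values were seen. Strand being unknown, overlapping genes are uncertain.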

Additional observations from a re-analysis of the deposited data

How the results depend on the processing

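Of 625 pairs of a member and an alternative setting, 564 kept the direction and side of the threshold, 28 lost a call, 18 gained one and 15 changed sign. The 5 members called with all libraries changed sign in 0 cases. Against 5 members called higher, there were 8 without the filter on low counts, 2 with limma on log2(FPKM + 1), 2 on log2(FPKM + 0.1) and 0 on log2(FPKM + 1) without a filter, and from 0 to 11 when 1 library was left out, with fewer libraries in each fit. No setting called a member lower. Of all tested genes, 268 were called higher and 60 lower, against 480 and 170 with DESeq2, 995 and 315 without the filter, 547 and 296 with the GC offset, 350 and 106 with the replicate block, 699 and 546 with both, 48 and 1 to 130 and 36 with limma, and 99 to 642 higher and 8 to 343 lower without 1 library. The median log2 fold change of the members was 0.10 with the GC offset, 0.10 with the replicate block and GC offset, and 0.11 with limma without a filter, against 0.15. Same-numbered replicates did not deviate together (r = -0.008, 0.022 and -0.075). Each deviation is from a mean of only 3 libraries, so these values cannot show whether libraries with the same number share a culture or a sort. With the replicate block 6 members were called higher, GAA being added, beside 2.2% of all tested genes, and the median of the members was 0.15. Of the other pathway genes, 2 were called higher with the replicate block (1.64%, beside 2.2% of all tested genes), against 1. With the replicate block and GC offset 5 were called higher (4.1%, beside 4.4%), and with limma 0.

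Sign changes were limited to values no farther than 0.105 from 0. With the GC offset LAMP2 was at 0.0451, SCARB2 at 0.0616 and ATP6V1A at 0.0329, and with the replicate block and GC offset at 0.0452, 0.0627 and 0.0322. When 1 library was left out, log2 fold changes ranged from -0.1438 to 0.0016 for CTSH, -0.1081 to 0.0145 for CTSL, -0.0806 to 0.0429 for SCARB2, -0.034 to 0.1476 for ASAH1, -0.0622 to 0.0937 for LIPA and -0.1048 to 0.1216 for MANBA. The cause of these changes was not tested.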
